A study of Mus musculus with 10 samples.

Results

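The clustered histone genes are the genes of the mouse histone clusters, taken here as every gene symbol that begins with Hist1h, Hist2h, Hist3h or Hist4h. There were 68 of them among the 23235 genes of each deposited table: 6 for the linker histone H1, 18 for H2A, 19 for H2B, 12 for H3 and 13 for H4. By cluster, 54 belong to Hist1, 10 to Hist2, 3 to Hist3 and 1 to Hist4. RNA was sequenced from GFP-positive cells of embryonic mouse cortex. Plasmids carrying GFP with a control shRNA, or with an shRNA against the chromatin remodeler Chd8, were electroporated into radial glia in utero at embryonic day 13, and GFP-positive cells were sorted at embryonic day 15. Each library is a pool of cortices from 3 to 5 embryos. The 10 libraries form 2 sets with 1 table each. The new set holds 3 control and 3 knockdown libraries (replicates 10, 11 and 12), the first set 2 of each (replicates 1 and 2). The sets carry different Chd8 shRNAs and were tabulated apart, so the shRNA, the batch and the table cannot be told apart between them. The strain is not given in the sources used here, and each shRNA is 1 construct.

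Histone H2A, H2B, H3 and H4 proteins form the core of the nucleosome, and linker H1 binds where the DNA enters and leaves it. Most clustered histone genes have no intron, are copied into RNA mainly in S phase, and give messages that end in a short stem-loop in place of a poly(A) tail. The stem-loop binding protein Slbp and the U7 particle make that end, and the message is destroyed when replication stops. Cells that leave the cycle can instead make polyadenylated forms of some of these genes, which run on past the stem-loop. The embryonic cortex at this age holds cycling radial glia and intermediate progenitors beside postmitotic neurons that keep nucleosomes in place with histone variants made outside S phase.

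The 3' ends were read from the GENCODE M21 transcripts (GRCm38), since the results below are also described by the shape of the annotated end. The sense strand was searched for the histone stem-loop motif, 16 bases that hold 2 stems of 6 bases around a loop of 4. Of 141767 transcripts, 124 (0.0875%) contain them. All 68 members had a transcript, 44 had the letters, and in all 44 the 2 stems pair fully. In 22 of those 44 the longest annotated run past the stem-loop was at least 100 bases, in the other 22 it was shorter, and 24 members had no match within their annotated transcripts, often because the model stops at the coding end. The forms are shown for 6 members whose values are given below, in sense direction, with the 4 loop bases in capitals.
Hist1h1c: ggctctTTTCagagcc
Hist3h2ba: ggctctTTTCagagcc
Hist1h3c: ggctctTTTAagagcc
Hist2h2ac: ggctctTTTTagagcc
Hist1h4d: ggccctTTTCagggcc
Hist1h4i: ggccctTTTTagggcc
The hairpin differs between these members by its stem pair or by the last loop base and by nothing else. The annotated end differs far more. The Hist1h1c transcript runs 840 bases past the stem-loop, Hist1h4d 770, Hist1h4i 330 and Hist3h2ba 169, while Hist1h3c ends 74 and Hist2h2ac 57 bases after it.

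Promoters were taken from RefSeq (GRCm38.p6), 250 bases before to 50 after each gene's start. RefSeq held 67 members, 61 of them with a promoter. Both strands were searched for ATTTGCAT (the octamer, reverse complement ATGCAAAT), CCAAT (reverse complement ATTGG), the TATA word TATAAA (reverse complement TTTATA) and the H1 box AAACACA (reverse complement TGTGTTT); each was counted on its own. The octamer stood in 7 of 17 H2A and 6 of 16 H2B promoters and in none of the 6 H1, 10 H3 and 12 H4 promoters, against 1.75% of all 27025 promoters. CCAAT stood in 6 of 6 H1, 17 of 17 H2A, 16 of 16 H2B and 10 of 10 H3 promoters but in 3 of 12 H4 promoters (37.9% of all promoters). AAACACA stood in 5 of 6 H1 promoters, 2 H2A and 2 H2B promoters and no H3 or H4 promoter (7.14% of all). TATAAA stood in 4 of 6 H1, 11 of 17 H2A, 8 of 16 H2B, 4 of 10 H3 and 8 of 12 H4 promoters (14.2% of all). The sequences printed 5' to 3' on the gene's strand are of 2 H1 genes that were higher in the first-set knockdown, the H1 gene that was not, and an H2A gene that shares its upstream region with an H2B gene. They lie at chr13:23738557-23738856 (plus strand), chr13:23622509-23622808 (minus), chr13:21780576-21780875 (minus) and chr13:23571171-23571470 (minus). Capitals mark matches to any of these motifs on either strand.
Hist1h1c: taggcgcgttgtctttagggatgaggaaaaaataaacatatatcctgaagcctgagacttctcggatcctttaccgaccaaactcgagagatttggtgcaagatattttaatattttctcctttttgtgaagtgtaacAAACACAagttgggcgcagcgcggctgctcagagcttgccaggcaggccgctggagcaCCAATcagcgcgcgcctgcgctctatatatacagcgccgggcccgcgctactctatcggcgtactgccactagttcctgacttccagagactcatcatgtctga
Hist1h1e: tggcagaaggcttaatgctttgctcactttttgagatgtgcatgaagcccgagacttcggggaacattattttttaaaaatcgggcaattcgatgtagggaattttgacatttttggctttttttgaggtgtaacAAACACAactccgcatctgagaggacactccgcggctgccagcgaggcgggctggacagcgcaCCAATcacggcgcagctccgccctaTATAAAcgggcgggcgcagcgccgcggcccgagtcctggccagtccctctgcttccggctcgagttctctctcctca
Hist1h1b: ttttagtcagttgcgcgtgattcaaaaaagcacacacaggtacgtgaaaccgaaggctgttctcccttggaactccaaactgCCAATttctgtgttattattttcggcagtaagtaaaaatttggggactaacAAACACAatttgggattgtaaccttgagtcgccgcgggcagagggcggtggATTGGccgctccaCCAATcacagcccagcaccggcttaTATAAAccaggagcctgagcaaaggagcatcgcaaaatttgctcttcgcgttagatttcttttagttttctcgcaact
Hist1h2ae: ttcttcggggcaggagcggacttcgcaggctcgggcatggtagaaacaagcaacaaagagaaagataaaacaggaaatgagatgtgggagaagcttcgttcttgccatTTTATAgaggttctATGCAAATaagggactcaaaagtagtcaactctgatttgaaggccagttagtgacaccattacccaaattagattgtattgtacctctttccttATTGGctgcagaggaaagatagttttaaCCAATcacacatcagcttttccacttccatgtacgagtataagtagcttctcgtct
In the H1 promoters AAACACA lies 112 (Hist1h1c), 115 (Hist1h1e) and 117 (Hist1h1b) bases before the start, and a CCAAT lies 54, 52 and 53 bases before it. Hist1h1b holds 2 further matches to CCAAT or its complement. Hist1h1b shares these words with Hist1h1c and Hist1h1e, and its RNA did not share their values in the first set.

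The files give no counts, so the absolute depth is unknown. In a group of 7 H2B genes (chosen after their values were seen), the values of each library were whole multiples of 1 step within 1%, which bounds the FPKM worth of 1 fragment for a gene of that length from above: 0.119 to 0.204 FPKM in the 6 new-set libraries, 0.383 and 0.292 in the first-set controls and 0.664 and 0.682 in the first-set knockdowns. The true worth of 1 fragment may be smaller than these steps, if no gene of the group held a single fragment. Olfactory receptor genes, 1118 sensory genes with no known role in cortex, averaged 0.0033 to 0.00554 FPKM over the new-set libraries, 0.0181 and 0.0217 in the first-set controls, but 1.39 and 0.993 in the first-set knockdowns. There 18.3% and 15.1% of them were above 1 FPKM. The cortical identity markers were present: 14 of 14 passed the filter in each table, with sums of 2848 to 3853 FPKM per new-set library and 2931 to 4632 per first-set library. Chd8 read 3.59, 3.30 and 4.02 FPKM in the new-set controls and 2.09, 1.84 and 1.92 FPKM in the new-set knockdowns, 53.6% of control (log2 fold change -0.65, SE 0.12, limma adjusted p = 0.0213). In the first set it read 12.4 and 13.8 FPKM in controls and 8.55 and 9.23 FPKM in knockdowns, 68% of control (-0.51, SE 0.23, limma adjusted p = 0.152). Knockdown and control did not overlap in either set. The new-set call was lost without any 1 of the libraries other than control replicate 11 (-0.70 to -0.59 over all 6, limma adjusted p 0.0218 to 0.0829). The exact permutation p (two-sided) was 0.1 and 0.333, the smallest that 3 against 3 and 2 against 2 allow, and 0.0167 over both sets, again the smallest.

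**Figure D1:**
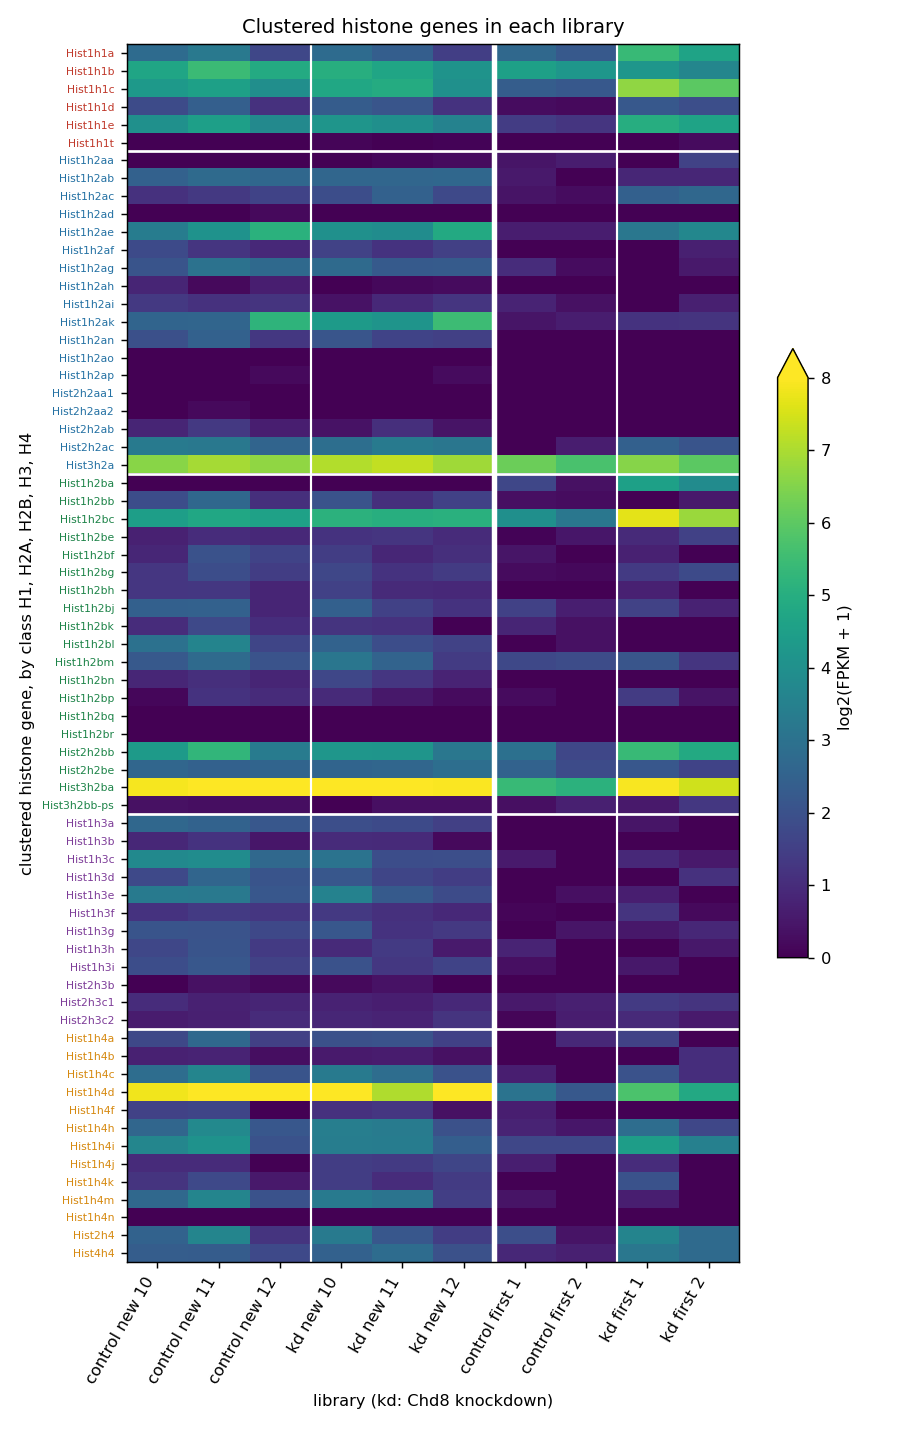
Each row is 1 of the 68 clustered histone genes, grouped by class, and each column 1 of the 10 libraries; colour is log2(FPKM + 1), with values above 8 drawn in the top colour. Hist3h2ba, Hist3h2a and Hist1h4d are bright in the new set, H3 rows are dark in all first-set libraries, and several H1, H2B and H4 rows brighten in the 2 first-set knockdowns.

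The levels of the members spanned from 0 to 723 FPKM, and a few genes carried most of the signal. Hist3h2ba averaged 410.5 FPKM over the new-set libraries, Hist1h4d 298 and Hist3h2a 119.9, and the next gene, Hist1h1b, 28.1. The first-set order, over controls and knockdowns together, was Hist3h2ba 121, Hist1h2bc 83.8, Hist3h2a 69.9 and Hist1h1c 42.4 FPKM. In the first-set controls alone Hist3h2a (73.0 and 51.3 FPKM) was above Hist3h2ba (40.9 and 34.5 FPKM). Replicates spread widely at these levels: Hist3h2ba ran from 236 to 723 FPKM, Hist1h4d from 131 to 488 and Hist1h1b from 16.4 to 42.4 FPKM over the new-set libraries, so neighbours further down the order do not differ beyond their spread. The 68 members together summed to 821 to 1342 FPKM per new-set library, to 205 and 143 FPKM in the first-set controls and to 940 and 604 FPKM in the first-set knockdowns. At the other end, 3 members (Hist1h2bq, Hist1h2br and Hist1h4n) were listed at 0 in all libraries. Many copies are near-identical in their coding part, so reads can be shared between them and the split between single members is uncertain.

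The new set held few changed clustered histone genes. Of 48 members that passed the filter of a mean of 1 FPKM, 1 rose (Hist1h2bc), 1 fell (Hist1h3a) and 46 did not pass limma's test at an adjusted p of 0.05, against 3.84% higher and 5.15% lower of all 11291 genes tested. The median log2 fold change of the members was -0.16, and that of all tested genes 0.02. An unadjusted p under 0.05 was reached by 7 members. Same-numbered control and knockdown libraries deviate together in this set, and with the replicate number as a block 3 members were higher (Hist1h2ak, Hist1h2bc and Hist3h2a) and 3 lower (Hist1h3a, Hist1h3c and Hist1h3h). That block also raised the calls over all 11291 genes, to 1245 higher and 1207 lower. Leaving out 1 library at a time left 0 to 2 members higher and 0 to 1 lower. Replicate 12 was the lowest of its group for 30 of the 48 members among controls and for 30 among knockdowns. The highest library did not match by number: it was replicate 11 for 34 members among controls and replicate 10 for 31 among knockdowns. In sorted bulk samples such as these, fewer cells of a type and less RNA per cell cannot be told apart.

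Of the 23 members tested in the first set, 17 rose and none fell, with a median log2 fold change of 2.16. Among all 12461 genes tested there, 13.2% were higher and 10.7% lower, with a median of -0.15. The rise took in 4 of 5 tested H1 genes, 3 of 4 H2A, 5 of 8 H2B and 5 of 6 H4 genes, while none of the 12 H3 genes reached the filter. An unadjusted p under 0.05 was reached by 18 members, none of them lower. The filter matters for this count: 45 members were not tested, and 8 of the 23 had a control mean below 1 FPKM and passed through their knockdown values. Of the 15 members with a control mean of at least 1 FPKM, 10 rose. Over all 68 members without the filter the median was 0.32. Without knockdown replicate 1 the count was 10 of 21 tested, and after subtraction of each library's mean olfactory receptor value it was 15 of 20, where all genes gave 870 higher and 1976 lower in place of 1639 and 1332 and a median of -0.41 in place of -0.15. When every detected member was tested the count was 12 of 54, and 5 of the 17 calls (Hist1h2ba, Hist1h4d, Hist1h4h, Hist2h2bb and Hist2h4) had a limma adjusted p of 0.0507 to 0.121.

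Measures of signal outside expressed genes and microglia markers moved with the same 2 knockdown libraries. Of the 77 olfactory receptor genes that passed the filter, 75 were higher in the first-set knockdown, with a median log2 fold change of 2.10, but 75 of the 77 had a control mean below 1 FPKM and passed through their knockdown values, so this count is a description of those libraries. Coding genes of a single exon, histone and olfactory receptor genes left out, were higher in 42 of 185 cases (22.7%), and genes of several exons in 1026 of 10282 (9.98%); in the new set these shares were 6.29% and 4.0%. Of the 67 members with an annotated exon count, 62 have a single exon. Of the 8 microglia markers 7 were tested and 4 rose (13.2% of all genes were higher). Cx3cr1, Tyrobp, C1qa, C1qc and P2ry12 had a control mean below 1 FPKM and passed through their knockdown values, so this count too is a description. The 8 markers summed to 1.52 and 6.03 FPKM in the controls, with 2 and 1 of them at 0. In the knockdowns they summed to 13.9 and 26.3 FPKM, with none at 0. The called members were picked by these same knockdown values, so their place among the 1118 olfactory receptor genes is a description. Of the 1118, 1 reached the knockdown mean of Hist1h1c, Hist1h2bc or Hist3h2ba, and 2 reached those of Hist1h1a, Hist1h1e, Hist1h2ba, Hist1h4d and Hist2h2bb. For the low members more did: 77 (6.89%) reached Hist1h2bg, 43 (3.85%) Hist1h1d, 30 (2.68%) Hist2h2ac, 23 (2.06%) Hist1h4h and 17 (1.52%) Hist1h2ac. The part of these signals in the histone values was not tested beyond the subtraction above.

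**Figure D2:**
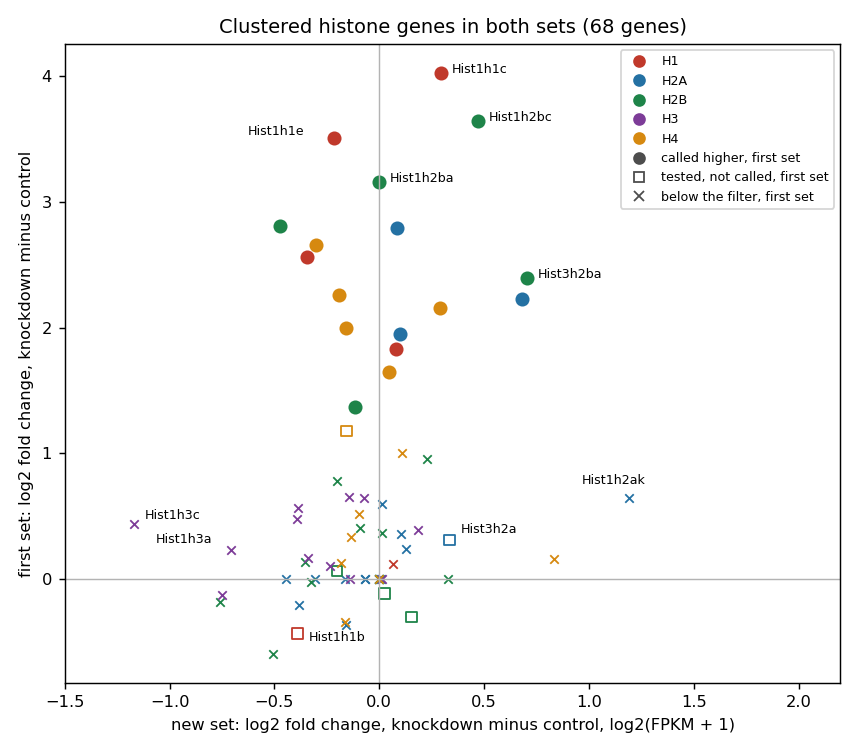
Each point is 1 of the 68 members, coloured by class, with its log2 fold change on log2(FPKM + 1) in the new set on the horizontal axis and in the first set on the vertical axis; filled circles were called higher in the first set, open squares were tested and not called, and crosses stayed below the filter there. The 17 filled circles lie between 1.37 and 4.03 on the vertical axis and between -0.47 and 0.70 on the horizontal one.

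Among the linker H1 genes 4 of 5 tested members rose in the first set (13.2% of all genes were higher), and Hist1h1c had the largest fold change of all members. Of the 4, Hist1h1d had a control mean below 1 FPKM and passed the filter through its knockdown values. Values per library are given in the order of the replicate numbers. Hist1h1c (RefSeq H1f2), a somatic H1 found in most tissues, read 4.16 and 3.64 FPKM in the first-set controls and 100.2 and 61.7 FPKM in the first-set knockdowns (log2 fold change 4.03, SE 0.28, limma adjusted p = 0.0005). Both knockdowns were far above both controls, 20.8-fold by the means. It read 18.9, 22.6 and 14.5 FPKM in the new-set controls and 26.0, 29.5 and 15.3 FPKM in the new-set knockdowns, groups that overlap (log2 fold change 0.29, SE 0.24, limma adjusted p = 0.436). Hist1h1e (H1f4), another widely expressed somatic H1, read 1.65 and 1.34 FPKM in the first-set controls and 31.0 and 24.1 FPKM in the first-set knockdowns (log2 fold change 3.51, SE 0.26, limma adjusted p = 0.000589). Its new-set values were 15.3, 21.9 and 12.6 FPKM in the new-set controls and 16.9, 14.7 and 10.6 FPKM in the new-set knockdowns (log2 fold change -0.21, SE 0.22, limma adjusted p = 0.535). Here too the first-set groups lie apart and the new-set groups overlap.

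Hist1h1a, also a somatic H1, read 5.5 and 3.69 FPKM in the first-set controls and 41.3 and 24.0 FPKM in the first-set knockdowns (log2 fold change 2.56, SE 0.33, limma adjusted p = 0.00259). The new-set libraries read 5.90, 8.33 and 2.25 FPKM in controls and 6.02, 4.25 and 1.77 FPKM in knockdowns (log2 fold change -0.35, SE 0.43, limma adjusted p = 0.62). Its first-set knockdowns were above every new-set library as well, though the tables were scaled apart. Hist1h1d, which is lowest of the somatic genes, read 0.201 and 0.144 FPKM in the first-set controls and 3.64 and 2.76 FPKM in the first-set knockdowns (log2 fold change 1.83, SE 0.24, limma adjusted p = 0.0027), against 2.56, 4.32 and 1.2 FPKM in controls and 4.03, 3.30 and 1.27 FPKM in knockdowns of the new set. Its first-set control values are below the H2B step, and without control replicate 2 its limma adjusted p was 0.0513. The testis gene Hist1h1t stayed below the filter in both sets, at 0 to 0.183 FPKM.

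Hist1h1b, a somatic H1 and the most abundant H1 of the controls in both sets, was the exception. It read 22.4 and 17.4 FPKM in the first-set controls and 17.4 and 11.8 FPKM in the first-set knockdowns (log2 fold change -0.43, SE 0.27, limma adjusted p = 0.271) and 24.8, 42.4 and 28.4 FPKM in the new-set controls and 31.6, 24.9 and 16.4 FPKM in the new-set knockdowns (log2 fold change -0.39, SE 0.25, limma adjusted p = 0.332). Neither set shows a rise, and the groups overlap in both. The makeup of the H1 class shifted in the first set: Hist1h1b held 66% and 66.4% of the summed H1 FPKM in the controls and 9.0% and 9.46% in the knockdowns, while Hist1h1c went from 12.3% and 13.9% to 51.8% and 49.5%. Across the new set Hist1h1b held 36.8% to 48.1% in controls and 32.5% to 37.4% in knockdowns, and Hist1h1c 22.7% to 27.9% in controls and 30.7% to 38.4% in knockdowns. No test was run on these shares.

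**Figure D3:**
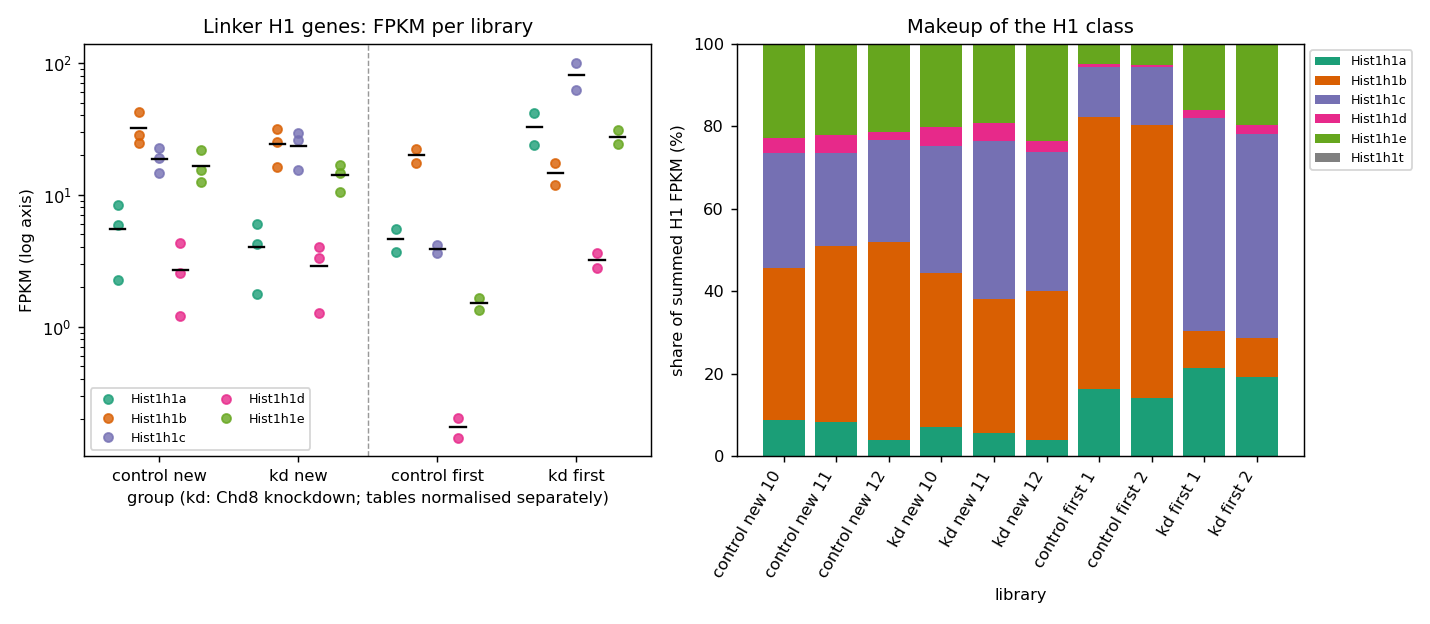
Left, FPKM of the 5 somatic H1 genes in each library on a log axis, 1 point per library and a bar at the group mean; right, the share of each H1 gene in the summed H1 FPKM of each library. Hist1h1c, Hist1h1e, Hist1h1a and Hist1h1d lie higher in the first-set knockdowns than in their controls, and the share of Hist1h1b drops from 66% and 66.4% to 9.0% and 9.46%.

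Among the H2A genes 3 of 4 tested members rose in the first set (13.2% of all genes were higher). None of 10 passed the test in the new set without the block. All 3 rises were of members with a control mean below 1 FPKM that passed the filter through their knockdown values. Hist1h2ae read 0.555 and 0.554 FPKM in the first-set controls and 7.92 and 12.1 FPKM in the first-set knockdowns (log2 fold change 2.80, SE 0.28, limma adjusted p = 0.00138) and 9.20, 15.7 and 33.6 FPKM in the new-set controls and 15.1, 14.0 and 28.2 FPKM in the new-set knockdowns. The first-set groups are far apart, and in the new set replicate 12 is the highest of both groups. Hist1h2ac read 0.335 and 0.199 FPKM in the first-set controls and 4.51 and 5.36 FPKM in the first-set knockdowns (log2 fold change 2.23, SE 0.24, limma adjusted p = 0.00162). Its new-set knockdowns, 2.74, 4.55 and 2.39 FPKM, were all above the controls, 1.22, 1.5 and 2.06 FPKM (log2 fold change 0.68, SE 0.21, limma adjusted p = 0.0755).

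Hist2h2ac, a cluster 2 gene, read 0 and 0.558 FPKM in the first-set controls and 4.45 and 3.26 FPKM in the first-set knockdowns (log2 fold change 1.95, SE 0.30, limma adjusted p = 0.00475). Without control replicate 1 or knockdown replicate 1 the limma adjusted p was 0.0568 or 0.0594. The new-set groups overlap, at 8.53, 8.30 and 4.92 FPKM in controls and 6.46, 8.77 and 7.84 FPKM in knockdowns. Hist3h2a, the most abundant H2A of both sets, did not follow: it read 73.0 and 51.3 FPKM in the first-set controls and 92.5 and 62.9 FPKM in the first-set knockdowns (log2 fold change 0.31, SE 0.27, limma adjusted p = 0.426) and 95.5, 121 and 101 FPKM in the new-set controls and 135, 152 and 115 FPKM in the new-set knockdowns (log2 fold change 0.34, SE 0.13, limma adjusted p = 0.123). Each new-set knockdown lay above its same-numbered control, and with the replicate block the limma adjusted p was 0.0331. Hist1h2ak read 4.96, 5.15 and 35.9 FPKM in the new-set controls and 19.4, 16.7 and 43.5 FPKM in the new-set knockdowns and is the member with the largest new-set fold change (log2 fold change 1.19, SE 0.68, limma adjusted p = 0.268). Replicate 12 is the highest of each group, the spread within groups is wide, and with the block the adjusted p was 0.0338. Without control replicate 12 the log2 fold change was 2.06 (limma adjusted p = 0.0313). First-set values of Hist1h2ak stayed at 0.359 to 1.29 FPKM, below the filter. The other 13 H2A members were not tested in the first set, and their values there lay between 0 and 1.96 FPKM.

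H2B held the single member called in both sets, Hist1h2bc. It read 21.3, 26.0 and 22.8 FPKM in the new-set controls and 33.9, 31.5 and 32.7 FPKM in the new-set knockdowns (log2 fold change 0.47, SE 0.09, limma adjusted p = 0.027), and every knockdown was above every control. The call was lost without any 1 of the libraries other than control replicate 11 (limma adjusted p up to 0.0897). First-set values were 14.8 and 8.05 FPKM in controls and 203 and 109.6 FPKM in knockdowns (log2 fold change 3.65, SE 0.37, limma adjusted p = 0.00142). The size of the change differed between the sets, 1.40-fold against 13.6-fold by the means. RefSeq gave no promoter for this gene, and none of its annotated transcripts holds the stem-loop letters.

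Hist3h2ba, the member with the highest mean over the libraries of each set, read 40.9 and 34.5 FPKM in the first-set controls and 240.3 and 169 FPKM in the first-set knockdowns (log2 fold change 2.39, SE 0.24, limma adjusted p = 0.00138). The new-set libraries had 236, 286 and 368 FPKM in controls and 603, 723 and 246 FPKM in knockdowns, with knockdown replicates 10 and 11 above and replicate 12 within the controls (log2 fold change 0.70, SE 0.37, limma adjusted p = 0.234). Without knockdown replicate 12 its log2 fold change was 1.18 (limma adjusted p = 0.0452). Its neighbour in cluster 3, Hist3h2a, shows no such first-set difference. Hist2h2bb read 6.67 and 2.24 FPKM in the first-set controls and 40.6 and 28.2 FPKM in the first-set knockdowns (log2 fold change 2.81, SE 0.42, limma adjusted p = 0.00438), against 19.5, 37.6 and 9.0 FPKM in controls and 17.4, 16.9 and 8.01 FPKM in knockdowns of the new set. Without first-set knockdown replicate 1 or 2 its limma adjusted p was 0.0999 or 0.0727. Hist2h2be, whose H2B variant is known from olfactory sensory neurons, read 4.77 and 2.55 FPKM in the first-set controls and 3.46 and 2.02 FPKM in the first-set knockdowns (log2 fold change -0.30, SE 0.34, limma adjusted p = 0.533) and stayed at 4.56 to 6.47 FPKM in the new set.

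The testis H2B gene Hist1h2ba, known from male germ cells, was listed at 0 in all 6 new-set libraries. Its first-set values were 2.26 and 0.288 FPKM in controls and 22.2 and 13.4 FPKM in knockdowns (log2 fold change 3.16, SE 0.47, limma adjusted p = 0.0041). Without knockdown replicate 1 or 2 the limma adjusted p was 0.0907 or 0.0645. The annotated partner with which it shares its upstream region, the testis gene Hist1h2aa, was at 0 and 1.96 FPKM in the same knockdowns. Hist1h2bg read 0.168 and 0.134 FPKM in the first-set controls and 1.54 and 2.48 FPKM in the first-set knockdowns (log2 fold change 1.37, SE 0.25, limma adjusted p = 0.00953), which was not called without control replicate 1 (limma adjusted p = 0.0983) or 2 (0.0991). Its new-set values were 1.39, 2.69 and 1.76 against 2.22, 1.26 and 1.62 FPKM. The 3 other H2B genes tested in the first set did not pass (Hist1h2bj, Hist1h2bm and Hist2h2be, -0.30 to 0.06). The 7 H2B genes of the fragment count above together held 94, 185 and 69 fragments in the new-set controls and 151, 117 and 42 in the knockdowns, but 14 and 13 in the first-set controls and 10 and 3 in its knockdowns, each a lower bound. No first-set rise of these 7 was detectable at this depth.

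Head-to-head H2A and H2B genes share 1 upstream region. The annotation holds 9 such pairs among the members, with starts 164 to 281 bases apart. Hist1h2ae and Hist1h2bg (180 bases) both rose in the first set, by 2.80 and 1.37 on the log2 scale. For Hist1h2ba and Hist1h2aa (281 bases) the values were 3.16 and 0.24, with Hist1h2aa below the filter. No gene of the other 7 pairs was called in the first set, most being below the filter, with log2 fold changes of -0.59 to 0.78. No gene of a pair was called in the new set, other than Hist1h2ak with the block (limma adjusted p = 0.0338) or without control replicate 12.

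H3 was the class with the lowest summed FPKM in each library and the only one with every tested new-set member below 0. All 8 tested H3 genes had a negative log2 fold change, from -1.17 to -0.15 with a median of -0.39. Hist1h3a fell: it read 5.32, 4.77 and 3.49 FPKM in the new-set controls and 2.82, 2.44 and 1.88 FPKM in the new-set knockdowns (log2 fold change -0.70, SE 0.17, limma adjusted p = 0.0416), and the groups did not overlap. Hist1h3c read 12.9, 13.7 and 5.48 FPKM in the new-set controls and 7.2, 2.69 and 2.83 FPKM in the new-set knockdowns (log2 fold change -1.17, SE 0.39, limma adjusted p = 0.0907; 0.0287 with the block). Knockdown replicate 10 overlaps the lowest control, while each knockdown is below the control of its number. Hist1h3h had 2.27, 3.26 and 1.54 FPKM in controls and 0.942, 1.59 and 0.479 FPKM in knockdowns (log2 fold change -0.75, SE 0.25, limma adjusted p = 0.0907; 0.0128 with the block). The call of Hist1h3a was lost without any 1 of the libraries other than control replicate 12, and with no filter on low values (0.084); over its 13 alternatives the limma adjusted p ran from 0.0128 to 0.125.

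Hist1h3e read 8.53, 8.40 and 3.53 FPKM in the new-set controls and 10.6, 3.86 and 2.54 FPKM in the new-set knockdowns (log2 fold change -0.34, SE 0.45, limma adjusted p = 0.635), and Hist1h3d 2.44, 5.04 and 3.26 against 3.49, 2.19 and 1.75 FPKM (log2 fold change -0.39, SE 0.25, limma adjusted p = 0.314). Both overlap between groups. The 12 H3 genes together summed to 2.12 and 1.81 FPKM in the first-set controls and to 6.52 and 4.89 FPKM in its knockdowns, 0.693% to 1.26% of all members' FPKM, against 1.5% to 5.00% in the new set. Hist1h3a was at 0 and 0 FPKM in the first-set controls and at 0.378 and 0 in the knockdowns, Hist1h3c at 0.498 and 0 against 0.892 and 0.453 FPKM, Hist1h3e at 0 and 0.254 against 0.578 and 0, and Hist1h3d at 0 and 0 against 0 and 1.18 FPKM. Values of this size are near the H2B steps. No H3 gene was tested in the first set.

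H4 is encoded by many genes for 1 protein, and 5 of 6 tested copies rose in the first set (13.2% of all genes were higher), while 7 copies were not tested. Of the 6, Hist1h4c, Hist1h4h and Hist4h4 had a control mean below 1 FPKM and passed the filter through their knockdown values. Hist1h4d, by far the most abundant, read 7.28 and 3.56 FPKM in the first-set controls and 52.3 and 27.2 FPKM in the first-set knockdowns (log2 fold change 2.66, SE 0.40, limma adjusted p = 0.00438) and 225, 257 and 488 FPKM in the new-set controls and 277, 131 and 411 FPKM in the new-set knockdowns (log2 fold change -0.30, SE 0.42, limma adjusted p = 0.656). The first-set groups are apart, and the new-set groups overlap, with replicate 12 highest on both sides. Without first-set knockdown replicate 1 the limma adjusted p was 0.0809. Hist1h4i read 2.28 and 2.29 FPKM in the first-set controls and 21 and 10.2 FPKM in the first-set knockdowns (log2 fold change 2.26, SE 0.35, limma adjusted p = 0.00506) and 11.7, 15.7 and 3.02 against 9.57, 9.34 and 4.24 FPKM in the new set. Hist4h4, the single gene of cluster 4, read 0.860 and 0.640 FPKM in the first-set controls and 7.98 and 5.78 FPKM in the first-set knockdowns (log2 fold change 2.16, SE 0.27, limma adjusted p = 0.00234), against 4.17, 3.99 and 2.38 and 4.63, 6.17 and 2.95 FPKM in the new-set controls and knockdowns.

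Lower in level, Hist2h4 read 2.79 and 0.35 FPKM in the first-set controls and 11.1 and 5.74 FPKM in the first-set knockdowns (log2 fold change 2.0, SE 0.51, limma adjusted p = 0.032) and Hist1h4h 0.753 and 0.392 FPKM in the first-set controls and 6.28 and 2.28 FPKM in the first-set knockdowns (log2 fold change 1.65, SE 0.39, limma adjusted p = 0.0252). Without knockdown replicate 1 the limma adjusted p was 0.222 (Hist2h4) and 0.0777 (Hist1h4h), without control replicate 2 it was 0.125 and 0.131, without knockdown replicate 2 Hist2h4 was at 0.114, and without control replicate 1 Hist1h4h was at 0.0895. Their new-set values ran from 1.29 to 11.5 FPKM (Hist2h4) and from 2.97 to 12.5 FPKM (Hist1h4h), with groups that overlap. Hist1h4c, the tested H4 gene that did not pass, read 0.606 and 0 FPKM in the first-set controls and 3.02 and 1.05 FPKM in the first-set knockdowns (log2 fold change 1.18, SE 0.38, limma adjusted p = 0.0623; 0.0307 with the block, in a set whose numbers do not pair). None of 11 tested H4 genes was called in the new set, and Hist1h4j had the largest fold change (log2 fold change 0.83, SE 0.26, limma adjusted p = 0.0826).

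Grouped by annotated 3' end, most first-set calls were of members whose transcripts run past the stem-loop. Of the 22 such members 13 were tested and 11 rose (13.2% of all genes were higher). Of the 7 with a control mean of at least 1 FPKM 6 rose, and of the 6 that passed the filter through their knockdown values 5 did. Without the filter their median log2 fold change was 1.27, and the lowest of the 22 was 0.12. Of the 22 members that end at the stem-loop 4 were tested and 2 rose (Hist1h4h and Hist2h2ac), both with a control mean below 1 FPKM, and the median was 0. Of the 24 without the letters 6 were tested and 4 rose (Hist1h1a, Hist1h2ba, Hist1h2bc and Hist2h2bb), with a median of 0.05. Control medians over members were low, at 0.311, 0.180 and 0.275 FPKM for the 3 kinds of end, and the knockdown medians were 2.62, 0.234 and 0.486 FPKM. Control levels were not matched, since 7, 2 and 6 members had a control mean of at least 1 FPKM. New-set medians were 0.04, -0.12 and -0.11. The 100-base limit was chosen after values had been seen, the annotation is of another build than the files, and longer transcripts also collect more fragments per FPKM, so this grouping is a description with no test.

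**Figure D4:**
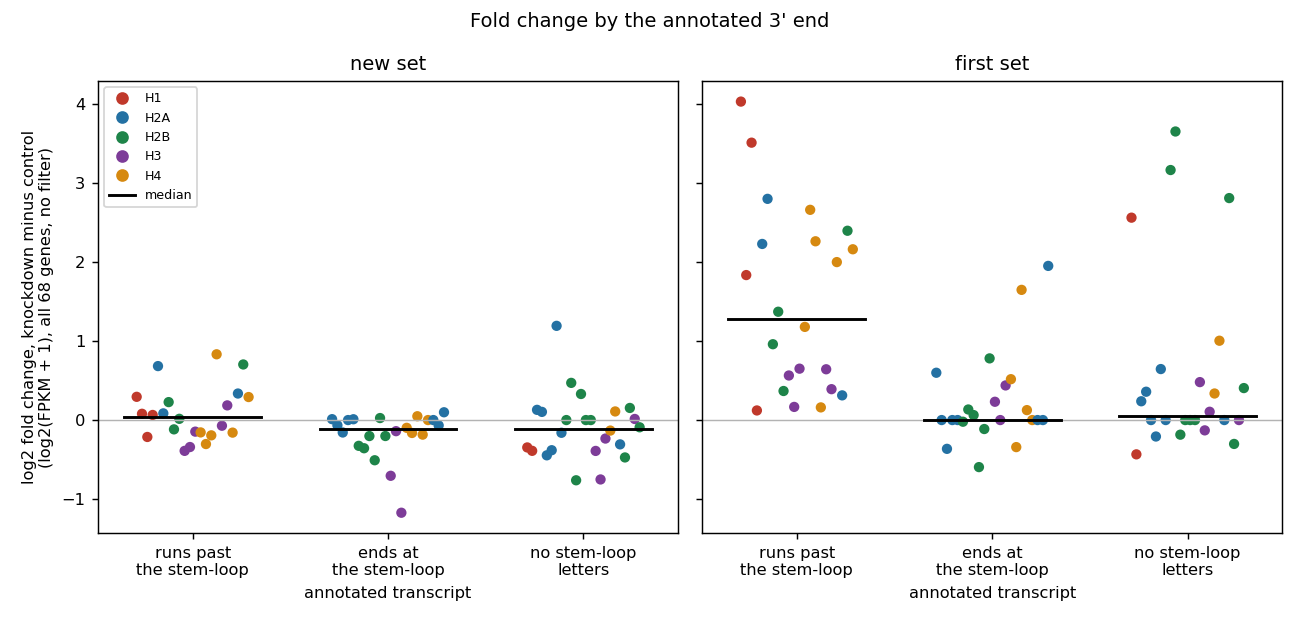
Log2 fold change of all 68 members on log2(FPKM + 1), without the filter, by the annotated 3' end, in the new set (left) and the first set (right); points are genes coloured by class and black bars are medians. In the first set the median is 1.27 for transcripts that run past the stem-loop, 0 for those that end there and 0.05 for those without the letters; in the new set the medians are 0.04, -0.12 and -0.11.

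Taken over both shRNAs, 13 of the 22 members tested in the joined fit were higher and none lower (median 1.03). The 22 hold all 8 members with a first-set control mean below 1 FPKM that passed the filter there through their knockdown values. Among all 10827 genes of that fit 9.37% were higher and 20.5% lower (median -0.11). An unadjusted p under 0.05 was reached by 16 members. Averaged over the sets, the log2 fold change came to 2.16 (SE 0.20, limma adjusted p = 9.28e-05) for Hist1h1c, 2.06 (SE 0.18, limma adjusted p = 7.89e-05) for Hist1h2bc, 1.65 (SE 0.17, limma adjusted p = 0.0002) for Hist1h1e and 1.55 (SE 0.26, limma adjusted p = 0.00227) for Hist3h2ba. The other 9 called members were Hist1h1a, Hist1h1d, Hist1h2ac, Hist1h2ae, Hist1h2bg, Hist1h4d, Hist2h2ac, Hist2h2bb and Hist4h4, at 0.63 to 1.45. Of these, Hist1h1d, Hist1h2ac, Hist1h2ae, Hist1h2bg, Hist2h2ac and Hist4h4 passed through their first-set knockdown values. This mean is carried by the first set: of these 13 members, Hist1h2bc alone was called in the new set with all its libraries. Without first-set knockdown replicate 1 the count was 8 of 20 tested, and Hist1h1a, Hist1h1d, Hist1h4d and Hist2h2bb had a limma adjusted p of 0.0942, 0.0634, 0.0911 and 0.108. Without first-set control replicate 2 the same 4 were at 0.0823, 0.053, 0.0877 and 0.136, and Hist2h2bb also lost its call without new-set control replicate 10 (0.0561), knockdown replicate 10 (0.0644) or knockdown replicate 11 (0.0671). The block added Hist1h4h, Hist1h4i and Hist3h2a (limma adjusted p = 0.0203, 0.00965 and 0.0177).

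The fold changes themselves differed between the sets. In 14 of 22 members the new-set fold change was lower than the first-set one, and in none higher, against 9.98% lower and 22.5% higher of the 10827 genes (median over members -1.80, over all genes 0.23). Among the 14, Hist1h1d, Hist1h2ac, Hist1h2ae, Hist1h2bg, Hist2h2ac and Hist4h4 had a first-set control mean below 1 FPKM. They passed the filter there through their knockdown values, so the count is a description. The differences were -3.73 (SE 0.39, limma adjusted p = 0.000244) for Hist1h1c, -3.72 (SE 0.34, limma adjusted p = 9.58e-05) for Hist1h1e and -3.18 (SE 0.36, limma adjusted p = 0.000378) for Hist1h2bc. Among the 8 members without a called difference were Hist1h1b at 0.04 (SE 0.40, limma adjusted p = 0.945) and Hist3h2a at 0.02 (SE 0.28, limma adjusted p = 0.959). Without first-set knockdown replicate 1 the limma adjusted p of the difference was 0.0749 for Hist1h1d, 0.101 for Hist1h4i and 0.101 for Hist3h2ba; these 3 calls were also lost without either first-set control (0.0586 to 0.0914). Hist1h4i missed the threshold too without new-set control replicate 10, control replicate 11 or knockdown replicate 12 (0.053 to 0.0546), and Hist3h2ba without new-set control replicate 11 or 12 (0.0514 and 0.0571) and with the block (0.0509). The block added Hist1h4c, Hist1h4h and Hist2h4 (0.0239, 0.0229 and 0.0325). The shRNA, batch and table differ together here, so the source of the difference cannot be told apart.

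Genes that act with the clustered histones were read from lists, with levels given as mean ± SD (n = 3 per group of the new set and 2 per group of the first). The replication-independent variants replace the clustered histones outside S phase. Of 11 tested, 1 fell in each set (5.15% and 10.7% of all genes were lower): H1f0, a linker histone of non-dividing cells, in the new set (557 ± 14.9 FPKM in controls and 369 ± 23.2 FPKM in knockdowns; log2 fold change -0.59, SE 0.09, limma adjusted p = 0.018), and H2afy in the first (log2 fold change -0.78, SE 0.20, limma adjusted p = 0.0338). H2afy was named after its values were seen. In the joined fit 1 was higher (H2afj, 0.54) and 3 lower (H1f0 -0.51, H2afz -0.43 and H2afy -0.30), against 9.37% and 20.5% of all genes. With the block H2afj was higher in the new set too (limma adjusted p = 0.0259). H2afz, the H2A variant at promoters, read 2012 ± 205 FPKM in controls and 1723 ± 219 FPKM in knockdowns of the new set and 3288 ± 231 FPKM in controls and 2124 ± 97.8 FPKM in knockdowns of the first. These variants summed to 6740 to 8888 FPKM over the 10 libraries, far above the clustered genes. The library priming is not given, so how far messages without a poly(A) tail were captured is unknown. The gap in FPKM can therefore not be read as a gap in the RNA of the cells.

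Of 19 tested genes for the processing and decay of histone messages, none was called in the new set and 1 rose and 2 fell in the first, against 13.2% higher and 10.7% lower of all genes. With the block 2 were higher and 1 lower in the new set, Slbp being the lower one (limma adjusted p = 0.04). Over all 11291 genes the block gave 1245 higher and 1207 lower there. Mblac1, a nuclease that acts on histone pre-mRNA ends, rose in the first set (1.37 ± 0.201 FPKM in controls and 4.39 ± 1.17 FPKM in knockdowns; log2 fold change 1.17, SE 0.27, limma adjusted p = 0.0229), and the cleavage factor genes Cpsf3 (log2 fold change -0.71, SE 0.19, limma adjusted p = 0.0365) and Cpsf1 (log2 fold change -0.97, SE 0.25, limma adjusted p = 0.0325) fell, the call of Cpsf3 being lost with the block (0.0514). Cpsf1 was named after its values were seen, and Slbp for its role. Slbp read 96.3 ± 7.35 FPKM in controls and 71.9 ± 10.1 FPKM in knockdowns of the new set (log2 fold change -0.42, SE 0.11, limma adjusted p = 0.057) and 63.2 ± 21.4 FPKM in controls and 77.3 ± 1.77 FPKM in knockdowns of the first (log2 fold change 0.33, SE 0.26, limma adjusted p = 0.389). The joined fit had 1 higher and 3 lower (Cpsf3 -0.28, Cpsf1 -0.44 and Ncbp2, a cap-binding gene, -0.34), a share of lower genes below the 20.5% of all genes. Of 19 histone chaperone and import genes none rose, 1 fell in the new set (2 with the block), and 5 fell in the first. Of all genes, 5.15% and 10.7% were lower in these 2 sets. In the joined fit 9 of the 19 were lower, against 20.5% of all genes. Asf1b, an H3-H4 chaperone of dividing cells, read 46.5 ± 5.5 FPKM in controls and 19.6 ± 2.44 FPKM in knockdowns of the first set (log2 fold change -1.2, SE 0.22, limma adjusted p = 0.00998) and 19.7 ± 1.86 FPKM in controls and 14.1 ± 2.51 FPKM in knockdowns of the new (log2 fold change -0.46, SE 0.14, limma adjusted p = 0.0697). Anp32e (log2 fold change -1.11, SE 0.22, limma adjusted p = 0.0131) and the FACT subunit gene Ssrp1 (log2 fold change -0.75, SE 0.19, limma adjusted p = 0.0318) fell in the first set, and Ssrp1 was lower in the new set with the block (0.0274).

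Cell-cycle genes differed in the other direction from the clustered histones in the first set. Of 32 S phase genes none rose, 6 fell in the new set (12 with the block), and 11 fell in the first, with medians of -0.29 and -0.61, and 21 fell in the joined fit. Of all genes, 5.15%, 10.7% and 20.5% were lower in these fits, and 1207 of 11291 in the new set with the block. Tk1, a thymidine kinase of S phase, fell in the first set (log2 fold change -0.92, SE 0.27, limma adjusted p = 0.0449) and likewise in the other one (log2 fold change -0.64, SE 0.10, limma adjusted p = 0.0178), and Fen1 and Lig1, which finish and join replicated strands, fell in the first set by 1.10 and 1.14 on the log2 scale. Of 20 G2/M genes the new set had 1 lower (8 with the block) and the first 14 (medians -0.35 and -0.86), with Kif20a, a mitotic kinesin, falling the most of the 3 named by the rule (log2 fold change -2.05, SE 0.27, limma adjusted p = 0.0027). The first set held higher RNA of 17 clustered histone genes beside lower RNA of S phase and mitotic genes in the same 2 knockdown libraries.

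Cell type markers are set beside the shares of all genes, 3.84% higher and 5.15% lower for the new set, 13.2% and 10.7% for the first. In the new set 6 of 10 radial glia markers, 3 of 8 intermediate progenitor markers, 5 of 5 interneuron markers and 2 of 5 erythroid markers fell, 5 of 11 neuron markers rose, and none of 3 microglia markers was called. With the block the lower counts were 7 radial glia, 5 intermediate progenitor, 5 interneuron, 3 erythroid and 1 microglia markers, and 9 neuron markers were higher. All 11291 genes gave 1245 higher and 1207 lower with the block. Summed interneuron markers were 18.6 to 27.6 FPKM in controls and 9.18 to 9.29 in knockdowns, and erythroid ones 149 to 279.9 and 23.6 to 115 FPKM. In the first set 2 of 10 radial glia markers and 4 of 11 neuron markers fell, 2 of 8 intermediate progenitor markers rose and 2 fell, and no interneuron (8 tested), erythroid (2) or endothelial and pericyte (2) marker was called. Of the 14 cortical identity markers 2 (4 with the block) rose and 6 fell in the new set and 5 fell in the first. Meningeal markers stayed below the filter, with sums of 0.371 to 2.33 FPKM. Whether such shifts take part in the histone values was not tested.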

How the data were processed

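Total RNA of GFP-positive cells sorted from electroporated mouse cortex was extracted with the RNeasy Plus kit and made into libraries with a Clontech low-input kit, per the labels' protocols. TopHat2, Bowtie, Cufflinks 2.0.0, Cuffdiff and the build mm9 are named per the submitters' processing notes; which annotation, read filters, priming and strand setting were used is not given in the sources used here. The authors deposited 2 tables of 23235 genes in FPKM, which divides fragments by transcript length and by library, with each library in a column; the files give no depth.

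Values were taken as log2(FPKM + 1), which understates changes of low genes. Genes whose mean reached 1 FPKM in a table were tested with limma 3.58.1 in R 4.3.3 (two-sided, intensity trend, residual degrees of freedom 4, 2 and 6 for the new, first and joined fits), fitted on the whole table with Benjamini-Hochberg adjustment over all tested genes and a threshold of 0.05. The joined fit gave the mean of both fold changes and their difference, new set minus first set. Replicates are separate embryo pools per the series' design text. Same-numbered new-set libraries deviated together across 11291 genes (correlations 0.122, 0.242 and 0.193), so the blocked value is given where it changes the call of a member or moves a list's new-set count of calls by over 1.5 times; the block was an alternative and not the primary design.

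Members and lists were chosen with earlier results of these data known, and classes and lists are described by counts and medians with no test. Named with all values were the 4 members of each class with the highest mean log2(FPKM + 1) and every member called in a fit of a fold change, and up to 3 genes per list, by smallest joined-fit p; other names were chosen after their values were seen. Alternatives were the pseudocount, the filter, rescaling, background subtraction, the variance trend, the block and each library left out. On simulated data limma recovered 100% of changes of 3 and 94% of changes of 1 on the log2 scale in the new set (11291 genes), and 99% and 22% in the first (12461 genes), with 6.28% and 11.68% false among the called. The simulated noise was independent between genes, and few genes were changed, equally up and down. In the real first set 13.2% of genes were higher and 10.7% lower, so these rates need not hold for its calls.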

Additional observations from a re-analysis of the deposited data

Results flagged for a closer look

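In 14 members the fold change differed between the sets by the joined limma fit (new-set minus first-set log2 fold change, 3 control and 3 knockdown against 2 and 2 libraries, adjusted over 10827 genes). Among the linker H1 genes the difference was -3.73 for Hist1h1c, -3.72 for Hist1h1e, -2.90 for Hist1h1a and -1.75 for Hist1h1d. Among the H2A genes it was -2.71 for Hist1h2ae, -1.85 for Hist2h2ac and -1.54 for Hist1h2ac. H2B gave -3.28 for Hist2h2bb, -3.18 for Hist1h2bc, -1.69 for Hist3h2ba and -1.49 for Hist1h2bg, and H4 gave -2.96 for Hist1h4d, -2.45 for Hist1h4i and -1.87 for Hist4h4. All 14 are larger in the first set, and none of the tested members differed the other way. Hist1h1d, Hist1h2ac, Hist1h2ae, Hist1h2bg, Hist2h2ac and Hist4h4 passed the first-set filter through their knockdown values.

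Outside the expressed genes, the mean of the 1118 olfactory receptor genes was 1.39 FPKM in first-set knockdown replicate 1 and 0.993 FPKM in replicate 2. Both are above the values of the first-set controls, 0.0181 and 0.0217 FPKM. The part of this signal in the histone differences was not tested beyond the subtraction of each library's mean, after which 12 of 19 members differed in the same direction. Such a subtraction cannot remove signal that differs between genes.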

How the results depend on the processing

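Fold changes of 2 libraries against 2 at a few fragments per gene limit the first set most. Of its 17 called members 8 lost the call in at least 1 alternative that tested them, as did 4 of 13 in the joined fit, 4 of 14 differences and both new-set calls. Some of the others fell below the filter in some settings and were not tested there. No called member reversed. The replicate block raised the new-set calls to 3 higher and 3 lower, and those of all genes from 434 higher and 581 lower to 1245 and 1207. In the first set the numbers do not pair (correlation -0.0285), and the block gave 18 higher in place of 17. No filter on low values, or a minimum of 5 FPKM, left 0 members lower in the new set. The minimum of 5 FPKM also left 10 of 12 tested higher in the first set, 7 of 10 in the joined fit and 8 of 10 with a lower new-set fold change, where fewer genes were tested, and put the new-set H3 median at -0.76 over 2 genes. After background subtraction 1 member had a higher new-set fold change. Leaving out 1 library at a time gave 0 to 2 members higher and 0 to 1 lower in the new set, 10 to 14 higher in the first, 8 to 16 in the joined fit, 10 to 15 with a lower new-set fold change, and -0.70 to -0.59 for Chd8 in the new set.

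First-set medians on the log2 scale, 2.16 over all members, moved to 2.86 with a pseudocount of 0.1 FPKM, 1.03 with 5, 0.50 with no filter and 2.73 with a minimum of 5 FPKM. In the same order H1 (2.56) went to 3.59, 1.94, 2.2 and 3.03, H2A (2.09) to 3.86, 0.83, 0.48 and 1.55, and H2B (1.88) to 2.73, 1.15, 0.39 and 2.98. H4 (2.08) went to 2.83 and 1.03 with the pseudocounts and 1.09 with no filter. Background subtraction gave 1.74 for H2A and 2.57 for H2B. Without 1 library the medians ran from 2.18 to 2.94 (H1), 1.63 to 2.21 (H2A), 1.39 to 2.64 (H2B) and 1.48 to 2.36 (H4). The cause of these moves was not tested beyond the settings themselves.

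Leaving out 1 library changed the sign of 10 uncalled values. In the new set they ran from -0.78 to 0.032 (Hist1h1a), -0.33 to 0.55 (Hist1h2ae), -0.84 to 0.021 (Hist1h3e), -0.67 to 0.15 (Hist1h4d), -0.29 to 0.51 (Hist1h4h), -0.81 to 0.22 (Hist1h4i), -0.12 to 0.22 (Hist2h2ac), -0.97 to 0.0049 (Hist2h2bb) and -0.79 to 0.43 (Hist2h4). In the first set Hist2h2be ran from -0.65 to 0.048.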
